A study of Mus musculus with 6 samples.

Results

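Growth factor ligands and receptor tyrosine kinases were examined in cultured mouse fibroblasts. The set holds 47 genes, chosen by symbol: ligands of the FGF, PDGF, VEGF, HGF, EGF, angiopoietin, neurotrophin, GDNF, KIT and TAM families, many of their receptors, and the collagen receptors Ddr1 and Ddr2. The set does not include every receptor of these families: the PDGF receptors, Fgfr4, Erbb4 and Tyro3 are not among the 47. Ligands are missing too, among them Egf, Tgfa and Pgf, so results for a family cover its listed genes only. All 47 symbols matched 1 gene each among the 55471 genes of the deposited table. By role, 26 are ligands and 21 are receptors or receptor-like proteins. The cells were 10T1/2, an embryonic fibroblast line of the mouse, grown in DMEM with serum and antibiotics and left untreated, and polyadenylated RNA was sequenced. The study set 3 libraries labelled Ranbp2 KO, from cells edited with CRISPR/Cas9 at the gene of a nuclear pore protein, against 3 wild-type (WT) libraries of the same line. The design text calls the libraries biological replicates. Neither it nor the labels say whether the KO cells are 1 clone or several, so a difference between clones and a difference made by the edit cannot be told apart. Separate cultures are not described either, so a p-value here reflects the variation among these 6 libraries, which may be technical.

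Receptor tyrosine kinases are cell surface proteins that pair up when a ligand binds, phosphorylate each other and recruit adaptors that pass the signal to the Ras-ERK, PI3K-AKT and phospholipase C routes. Most of their ligands are secreted or are cut from the cell surface, and they act on the cell that makes them or on its neighbours. Fibroblasts are known as a source of ligands for epithelia and vessels, such as Fgf7, Fgf10, Hgf and Angpt1, while they themselves respond to FGF, PDGF and EGF family ligands.

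Libraries held 32072817 to 46321967 expected counts in all. Ranbp2 mRNA stood at 294, 289 and 293 CPM (counts scaled to the size of each library, with TMM factors) in the KO-labelled libraries, against 219.6, 250.0 and 249 CPM in the WT libraries, so the targeted mRNA was not lower, and the libraries are called KO-labelled throughout. The log2 difference of Ranbp2, KO-labelled minus WT, was 0.28 (SE 0.07, edgeR adjusted p = 0.012). Checks of the deletion that the design text lists (qPCR, blotting and staining) were not analysed here, and gene counts do not tell an edited transcript from an intact one. Of 10 fibroblast markers, 9 were measured, 4 higher and 1 lower, with summed levels of 27355 to 34170 CPM in KO-labelled and 21817 to 25123 CPM in WT libraries. Fn1 had the widest gap in these sums, with a mean of 14511 CPM in KO-labelled and 5860 CPM in WT libraries. Col3a1, Dcn and Lum were also higher, and Col1a1 was lower (4230 CPM in KO-labelled and 5716 CPM in WT libraries). Lum, at 0.799 CPM in KO-labelled and 0.165 CPM in WT libraries, passed the filter on low counts through the KO-labelled libraries. The 10 endothelial markers summed to 8.52 to 10.2 CPM in KO-labelled and 2.70 to 3.69 CPM in WT libraries. Of these, Vwf was called higher, while Cldn5, Robo4 and Sox17 had no count in any library. The 10 epithelial markers summed to 6.34 to 9.32 CPM in KO-labelled and 2.23 to 2.65 CPM in WT libraries, mostly Cdh1, which was called higher. Markers of blood and mast cells stayed at 2.24 to 2.95 CPM in KO-labelled and 2.20 to 2.80 CPM in WT libraries, with 0 of 3 measured genes called. Those of Schwann cells and neurons summed to 4.50 to 5.25 CPM in KO-labelled and 16.3 to 19.0 CPM in WT libraries, mostly Tubb3, which was called lower. The part of these marker levels in the results below was not tested.

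Most of the measured genes of the set were lower in the KO-labelled libraries. Of 47 genes, 40 passed the filter on low counts; 24 of the 40 were lower, 8 were higher and 8 did not pass the test at an edgeR adjusted p below 0.05. Over all 15454 genes tested, 21.3% were called lower and 17.6% higher, so the share of the set called lower, 60.0%, lay above that background, while the share called higher, 20.0%, was close to it. Groups that did not overlap were found in 34 of the 40 genes, 25 with KO-labelled libraries below and 9 above WT, where 51.4% of all genes tested do not overlap, 26.8% below and 24.6% above. The median log2 difference of the 40 genes was -0.49, and that of all genes tested was 0.01. Calls with at least a 2-fold difference numbered 12 lower and 4 higher, where 5.73% and 4.41% of all genes tested reached that size, and their edgeR adjusted p-values lay between 4.47e-08 and 0.0138. Areg passed the filter through the WT libraries alone and therefore had to differ, so the counts describe the genes that passed and not the whole set. In bulk RNA, fewer cells that express a gene and less of its RNA per cell cannot be told apart.

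Most ligand genes were lower, while the calls of receptor genes were more evenly divided; the difference between both counts was not tested. Of 24 ligand genes measured, 17 were lower (70.8%), 3 were higher (12.5%) and 4 were not called, with a median log2 difference of -0.59. Of 16 receptor genes measured, 7 were lower (43.75%), 5 were higher (31.25%) and 4 were not called, with a median of -0.23. The shares of all genes tested were 21.3% lower and 17.6% higher, so both receptor shares stood above them. The summed level of all ligands was 703 to 774 CPM in KO-labelled and 814 to 987 CPM in WT libraries, without overlap. For receptors, the sums of 1647 to 1846 CPM in KO-labelled and 1734 to 1867 CPM in WT libraries overlapped.

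**Figure D1:**
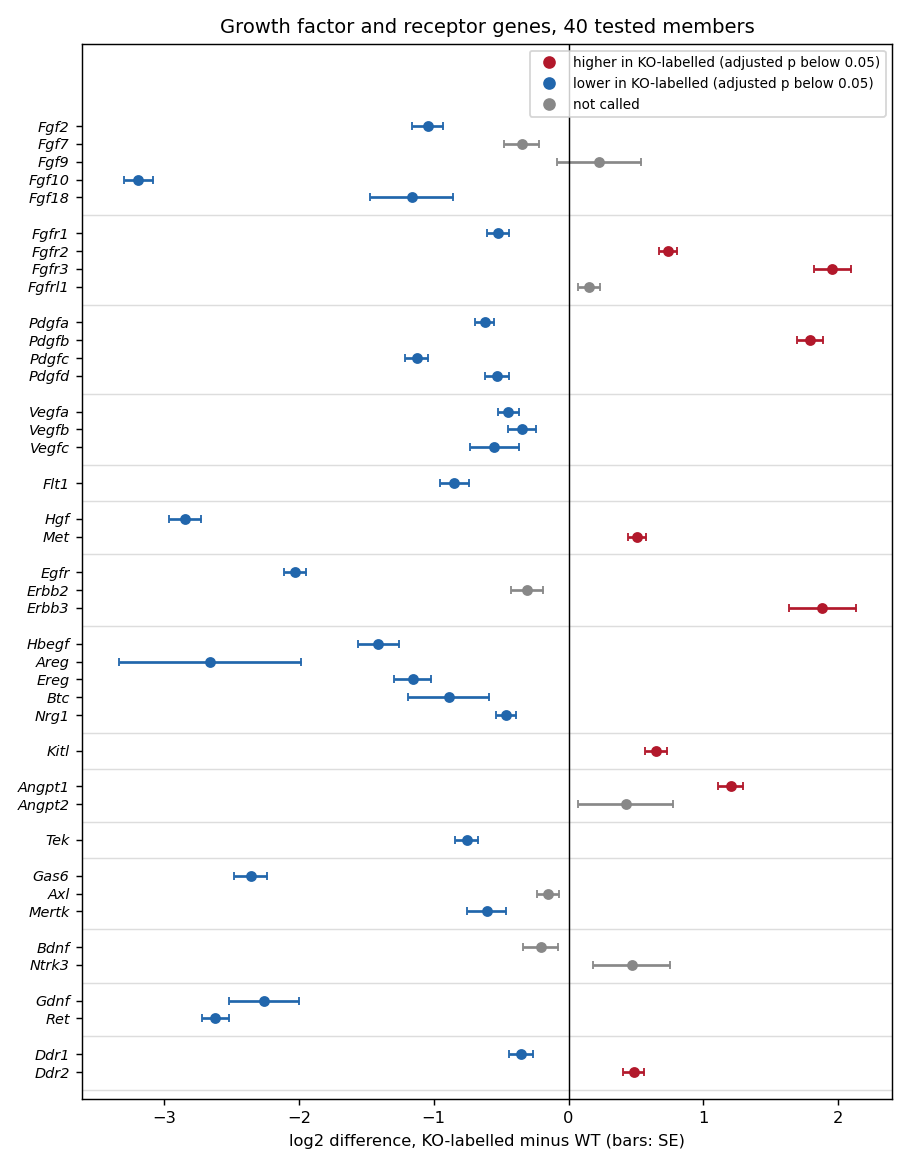
Log2 difference (KO-labelled minus WT; edgeR) of the 40 measured genes on the horizontal axis, grouped by family, with bars of 1 SE. Red points are called higher, blue points lower and grey points not called; Fgf10 at -3.19 and Fgfr3 at 1.96 are the ends of the range.

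The mesenchymal ligands Fgf10 and Hgf and the TAM ligand Gas6 fell by some of the widest margins, and the receptor gene Fgfr3 showed the largest positive difference of the set. Their promoters are shown to give the sequence context of the start sites of these genes. The windows are the 250 bases upstream of the most upstream RefSeq start (GRCm38.p6) of each gene, written 5′ to 3′ on the gene's strand. Capitals mark the GC box GGGCGG and the CCAAT box CCAAT on either strand, which were the only searched motifs found in them.
Fgf10: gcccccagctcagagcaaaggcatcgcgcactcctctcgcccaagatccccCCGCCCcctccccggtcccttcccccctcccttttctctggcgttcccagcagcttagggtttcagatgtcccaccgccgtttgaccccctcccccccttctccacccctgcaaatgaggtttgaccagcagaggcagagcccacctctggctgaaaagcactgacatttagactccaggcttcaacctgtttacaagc
Hgf: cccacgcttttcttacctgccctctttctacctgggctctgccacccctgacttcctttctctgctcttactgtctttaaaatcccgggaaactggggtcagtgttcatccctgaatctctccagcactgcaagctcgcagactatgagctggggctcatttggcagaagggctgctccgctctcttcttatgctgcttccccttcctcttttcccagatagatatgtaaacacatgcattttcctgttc
Gas6: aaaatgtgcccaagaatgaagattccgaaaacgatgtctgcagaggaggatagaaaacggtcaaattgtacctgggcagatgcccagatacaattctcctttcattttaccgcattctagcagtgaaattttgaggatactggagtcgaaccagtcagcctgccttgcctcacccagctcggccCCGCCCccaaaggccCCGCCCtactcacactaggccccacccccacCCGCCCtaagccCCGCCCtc
Fgfr3: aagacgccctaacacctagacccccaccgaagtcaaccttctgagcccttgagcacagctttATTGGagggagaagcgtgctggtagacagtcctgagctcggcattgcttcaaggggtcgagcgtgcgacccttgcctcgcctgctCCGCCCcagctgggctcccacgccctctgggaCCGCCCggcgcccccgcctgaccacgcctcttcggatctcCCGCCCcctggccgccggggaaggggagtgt
The windows lie at chr13:118714449-118714698 (plus strand), chr5:16553245-16553494 (plus strand), chr8:13494536-13494785 (minus strand) and chr5:33721474-33721723 (plus strand). RefSeq and GENCODE starts can differ. The Fgf10 window lies inside the gene as GENCODE M21 places it (118669791 to 118792115), not upstream of that start. The Fgfr3 window ends inside the gene so placed (33721674 to 33737068), and its last GC box lies in that part. They hold 1 GC box in Fgf10, 0 in Hgf, 4 in Gas6 and 3 in Fgfr3, and Fgfr3 also holds 1 CCAAT box. RefSeq entries were matched for 36 of the 47 genes. A GC box stood in 23 of the 36, or 63.9%, where 35.4% of all 27025 genes in the promoter table have one. By call, it stood in 13 of 19 genes that were lower, 3 of 5 that were higher and 3 of 6 that were not called. The AP-1 motif TGANTCA was found in Bdnf, Ddr1 and Met (8.33% of the 36, against 7.82% of all genes), and the cyclic AMP response element TGACGTCA in Areg and Flt1 (5.56%, against 1.77%). The E-box CACGTG stood in 2, the TEAD motif CATTCC in 4, TATAAA in 6 and CCAAT in 6 of the 36 genes, where 6.86%, 14.4%, 14.3% and 37.5% of all genes hold them. These are matches of letters, and no binding was measured.

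Among the FGF ligands of the set, Fgf10, Fgf2 and Fgf18 were lower, and Fgf7 and Fgf9 were not called. Fgf10 (ENSMUSG00000021732, chromosome 13, 118669791 to 118792115, plus strand), which signals from mesenchyme to epithelium in lung and limb buds, had 2.35, 2.16 and 2.08 CPM in the KO-labelled libraries, against 18.4, 20.8 and 21.1 CPM in the WT libraries. It was 9.13-fold lower, a log2 difference of -3.19 (SE 0.11, edgeR adjusted p = 4.47e-08), the largest negative difference of the set. Chromosome 13, on which it lies, had a median log2 difference of -0.28, and relative to that median the difference of Fgf10 was -2.91. Fgf2, the basic FGF that drives fibroblast growth, had 5.87, 7.26 and 6.48 CPM in KO-labelled and 12.4, 13.3 and 14.8 CPM in WT libraries (log2 difference -1.05, SE 0.12). The groups did not overlap for Fgf10 or Fgf2. Nudt6, an antisense gene that shares exon positions with Fgf2, stood at 1.79 ± 0.127 CPM in KO-labelled and 1.75 ± 0.601 CPM in WT libraries and was not called. Fgf18, a ligand of cartilage and bone growth, was at 0.652, 1.41 and 0.639 CPM in KO-labelled and 2.05, 1.94 and 2.14 CPM in WT libraries (log2 difference -1.16, SE 0.31). Its call was lost without KO-labelled library 1 (edgeR adjusted p = 0.05001, in a range of 8.61e-05 to 0.05001 over the alternative fits).

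Fgf7, keratinocyte growth factor, was the most abundant of the 7 FGF ligands of the set per exon length in every library. It had 92.6, 73.3 and 75.7 CPM in KO-labelled and 85.5, 101 and 121 CPM in WT libraries, and the groups overlapped (log2 difference -0.35, SE 0.13, edgeR adjusted p = 0.0582). The alternative fits called it lower in 4 of 12 cases, with adjusted p from 9.91e-05 to 0.179. Fgf7 and Fgf10 both bind the epithelial splice form of Fgfr2, and their ratio per kilobase of exon was 55.8, 48.2 and 51.7 in KO-labelled libraries, against 6.59, 6.91 and 8.11 in WT libraries. Fgf7 thus made up 92.2, 86.9 and 91.0% of the summed FGF ligand level per kilobase in KO-labelled libraries and 76.6, 78.8 and 80.3% in WT libraries. Fgf9, a ligand of gonad and lung mesenchyme, stood at 2.24, 3.16 and 1.69 CPM in KO-labelled and 2.34, 1.20 and 2.57 CPM in WT libraries, with overlapping groups and a log2 difference of 0.23 (SE 0.31). Fgf1, the acidic FGF, had 0 counts over the KO-labelled and 6 over the WT libraries. With 3 counts taken as the floor of the KO-labelled sum, the WT level was 1.68 times that floor. The counting error of the 6 WT counts is left out, so 1.68 is not a lower limit of the difference. Fgf5 had no count in any library.

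The FGF receptors moved in different directions. Fgfr1, the main FGF receptor of mesenchymal cells, was lower, with 112, 118 and 127 CPM in KO-labelled and 187, 168 and 158 CPM in WT libraries (log2 difference -0.52, SE 0.08). Fgfr2, known for epithelial and bone signalling, was higher, with 42.7, 43.9 and 45.1 CPM in KO-labelled and 27.3, 26.2 and 25.4 CPM in WT libraries (log2 difference 0.74, SE 0.07). Fgfr3 (ENSMUSG00000054252, chromosome 5, 33721674 to 33737068, plus strand), a receptor of cartilage that restrains the growth of long bones, had 20.4, 18.3 and 20.2 CPM in KO-labelled and 5.88, 5.31 and 3.99 CPM in WT libraries. All 3 receptors separated the groups without overlap, and Fgfr3 was 3.88-fold higher (log2 difference 1.96, SE 0.14, edgeR adjusted p = 4.65e-06). Fgfrl1, a receptor-like protein without a kinase domain, was at 91.0, 99.6 and 100.4 CPM in KO-labelled and 95.6, 84.5 and 81.7 CPM in WT libraries, overlapped and was not called (log2 difference 0.15, SE 0.08). The ratio of Fgfr3 to Fgfr1 per kilobase was 0.251, 0.215 and 0.219 in KO-labelled and 0.0435, 0.0435 and 0.0349 in WT libraries. For Fgfr2 to Fgfr1 it was 0.364, 0.356 and 0.339 in KO-labelled and 0.140, 0.149 and 0.154 in WT libraries. Among the FGF receptors of the set, Fgfr1 remained the kinase receptor with the highest level per kilobase in all 6 libraries. The annotated Fgfr2 gene shares exon positions on the same strand with Ctbp2, which was lower in the KO-labelled libraries (37.7 ± 1.10 against 45.2 ± 0.959 CPM, log2 difference -0.26), and reads of the shared positions may have been divided between both genes.

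**Figure D2:**
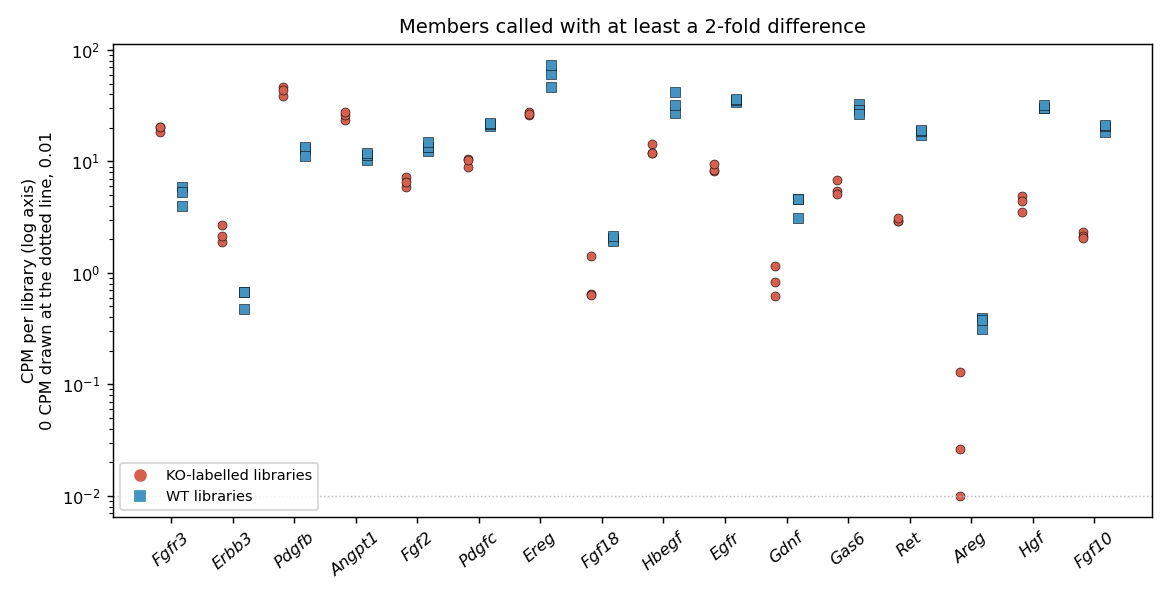
CPM in each library on a log axis for the 16 genes called with at least a 2-fold difference, ordered from the largest positive to the largest negative log2 difference; circles are KO-labelled and squares WT libraries, 3 each, and the 0 of Areg in 1 KO-labelled library is drawn at the dotted line. The groups do not overlap in any of the 16 genes, and the gap between them is widest for Fgf10 and Hgf.

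The PDGF ligands moved in different directions, with Pdgfb higher and the other 3 lower. Pdgfb (ENSMUSG00000000489, chromosome 15, 79995874 to 80014977, minus strand), whose homodimer recruits pericytes to vessels, was higher, with 38.8, 46.2 and 44.1 CPM in KO-labelled and 12.8, 13.3 and 11.1 CPM in WT libraries, a 3.46-fold difference (log2 1.79, SE 0.10, edgeR adjusted p = 9.09e-07). Pdgfa, a ligand of lung and skin mesenchyme, had 47.9, 45.4 and 45.0 CPM in KO-labelled and 68.3, 69.1 and 75.5 CPM in WT libraries (log2 difference -0.62, SE 0.07). Pdgfc, secreted in a latent form that proteases activate, had 10.4, 8.93 and 10.2 CPM in KO-labelled and 20.95, 21.6 and 22.0 CPM in WT libraries (log2 difference -1.13, SE 0.09). Pdgfd, also activated by proteases, stood at 11.5 ± 0.569 CPM in KO-labelled and 16.6 ± 1.07 CPM in WT libraries (SD, n = 3 each; log2 difference -0.53, SE 0.09). None of the 4 genes overlapped between groups. Of the summed PDGF ligand level per kilobase, Pdgfb made up 30.9, 35.8 and 34.3% in KO-labelled and 9.07, 9.14 and 7.27% in WT libraries, and Pdgfa 50.9, 46.9 and 46.8% in KO-labelled and 64.5, 63.2 and 66.1% in WT libraries. The sum over the 4 ligands was 30.2, 31.0 and 30.9 CPM per kilobase in KO-labelled and 33.9, 35.0 and 36.7 in WT libraries. The antisense gene 6330403L08Rik, which shares exon positions with Pdgfa, was also lower (10.5 ± 1.27 against 19.4 ± 1.96 CPM, log2 difference -0.89), and without a stated strand setting the reads of both genes cannot be told apart.

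The 3 VEGF ligands of the set, from a family that controls the growth of blood and lymphatic vessels, were lower by small amounts. Vegfa, the main angiogenic ligand and a hypoxia target, had 49.1, 42.5 and 43.5 CPM in KO-labelled and 59.0, 60.9 and 64.2 CPM in WT libraries, without overlap (log2 difference -0.45, SE 0.08, edgeR adjusted p = 0.00179). Genes of its chromosome 17 stood at a median of 0.27, and relative to that median the difference of Vegfa was -0.72. Vegfb was at 23.8 ± 1.68 CPM in KO-labelled and 30.3 ± 4.17 CPM in WT libraries (SD, n = 3 each), and Vegfc, the lymphatic ligand, at 2.08 ± 0.281 CPM in KO-labelled and 3.04 ± 0.382 CPM in WT libraries. Neither call held in all alternative fits. The Vegfb call was lost without KO-labelled library 2 (edgeR adjusted p = 0.0927) and without WT library 1 (0.0522), in a range of 0.000403 to 0.0927, and its difference relative to the median of chromosome 19 was -0.16 instead of -0.35. The Vegfc call (log2 difference -0.55) was lost in 6 of 12 alternative fits, without KO-labelled library 2 or 3, without WT library 1 or 2, with library size alone and with a replicate block, with edgeR adjusted p of 0.0244 to 0.118 over the 12.

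Receptors of endothelial cells were present in part. Flt1, a VEGF receptor that also occurs as a soluble trap, had 27.3, 33.7 and 37.2 CPM in KO-labelled and 56.4, 58.2 and 62.2 CPM in WT libraries and was lower (log2 difference -0.85, SE 0.11). Tek, the angiopoietin receptor, was lower as well, with 19.9, 23.7 and 22.2 CPM in KO-labelled and 38.6, 38.2 and 34.3 CPM in WT libraries (log2 difference -0.76, SE 0.09). The other receptors of this class were near the limit of detection. Kdr, the main signalling receptor for Vegfa, had 2 counts over the KO-labelled and 38 over the WT libraries, so that the WT level was 15.9 times the KO-labelled one (exact 95% interval 4.12 to 136). Flt4, the receptor for Vegfc, had 0 counts over the KO-labelled and 20 over the WT libraries. The WT level was 5.59 times the same floor of 3 counts, which is again not a lower limit. Tie1 had 1 count over the KO-labelled and 0 over the WT libraries. The endothelial markers did not move together. Vwf averaged 6.04 CPM in KO-labelled and 0.269 CPM in WT libraries and was called higher. Pecam1 averaged 0.793 CPM in KO-labelled and 0.347 CPM in WT libraries and was not called. Egfl7 (1.06 CPM in both groups) and Erg (1.05 CPM in KO-labelled and 1.17 CPM in WT libraries) were not called either. Cdh5, too low to be tested, averaged 0.0106 CPM in KO-labelled and 0.131 CPM in WT libraries. The part of such cells in the results for Flt1 and Tek was not tested.

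Angpt1 (ENSMUSG00000022309, chromosome 15, 42424723 to 42676977, minus strand), a Tek ligand that stabilises vessels, was higher while its receptor was lower. It had 23.6, 26.1 and 27.9 CPM in KO-labelled and 10.3, 11.4 and 12.0 CPM in WT libraries (log2 difference 1.20, SE 0.09, edgeR adjusted p = 7.88e-06). The ratio of Tek to Angpt1 per kilobase was 0.931, 1.00 and 0.879 in KO-labelled and 4.13, 3.70 and 3.16 in WT libraries. Angpt2, which acts mostly as an antagonist of Angpt1, stood at 0.287, 0.513 and 0.479 CPM in KO-labelled and 0.313, 0.326 and 0.309 CPM in WT libraries and was not called.

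Hgf and its receptor Met, the pair through which mesenchyme drives epithelial scattering, moved in opposite directions. Hgf (ENSMUSG00000028864, chromosome 5, 16553495 to 16620152, plus strand) had 4.93, 3.52 and 4.44 CPM in KO-labelled and 30.2, 30.1 and 32.4 CPM in WT libraries, 7.19-fold lower (log2 difference -2.85, SE 0.12, edgeR adjusted p = 1.45e-07). Met had 72.9, 74.5 and 74.4 CPM in KO-labelled and 49.3, 53.1 and 53.8 CPM in WT libraries and was higher (log2 difference 0.51, SE 0.07). Genes of chromosome 6, on which Met lies, stood at a median of 0.17, and relative to that median the difference of Met was 0.34. Neither gene overlapped between groups, and the ratio of Met to Hgf per kilobase was 13.8, 19.8 and 15.7 in KO-labelled and 1.53, 1.65 and 1.56 in WT libraries. Gm43489, an unnamed gene model on the same strand that shares exon positions with Hgf, was lower too, with 0.241 ± 0.116 CPM in KO-labelled and 1.32 ± 0.223 CPM in WT libraries.

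All 5 EGF family ligands of the set were lower. Hbegf, which is shed from the cell surface and binds Egfr, had 14.2, 12.0 and 11.8 CPM in KO-labelled and 27.2, 32.2 and 42.0 CPM in WT libraries (log2 difference -1.41, SE 0.15). Ereg, the gene of epiregulin, had 27.7, 26.3 and 26.8 CPM in KO-labelled and 46.2, 61.5 and 72.6 CPM in WT libraries (log2 difference -1.16, SE 0.14). In both genes the KO-labelled values lay close together and WT library 1 was the lowest and WT library 3 the highest of the WT values. Nrg1, a ligand of Erbb3, had 61.8, 68.3 and 66.4 CPM in KO-labelled and 85.9, 87.8 and 97.7 CPM in WT libraries, a smaller difference (log2 -0.47, SE 0.08). Areg, the gene of amphiregulin, had 1, 5 and 0 counts in KO-labelled and 13, 18 and 16 counts in WT libraries (log2 difference -2.66, SE 0.68). Its size rests on KO-labelled library 2, without which the log2 difference was -4.39; over the fits that leave out 1 library it ran from -4.39 to -2.18, and the gene was called in each of them. Btc, the gene of betacellulin, was at 0.417 ± 0.0873 CPM in KO-labelled and 0.782 ± 0.126 CPM in WT libraries (SD, n = 3 each; log2 difference -0.89). At this low level the Btc call was lost in 10 of 11 alternative fits, whichever library was left out, with edgeR adjusted p of 0.0418 to 0.131. Ereg, Areg and Btc lie next to each other on chromosome 5 between 91074622 and 91402994, and the median log2 difference of that chromosome was 0.05. The 5 EGF family ligands of the set summed to 15.7, 15.7 and 15.4 CPM per kilobase in KO-labelled and 25.5, 30.5 and 36.2 in WT libraries.

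**Figure D3:**
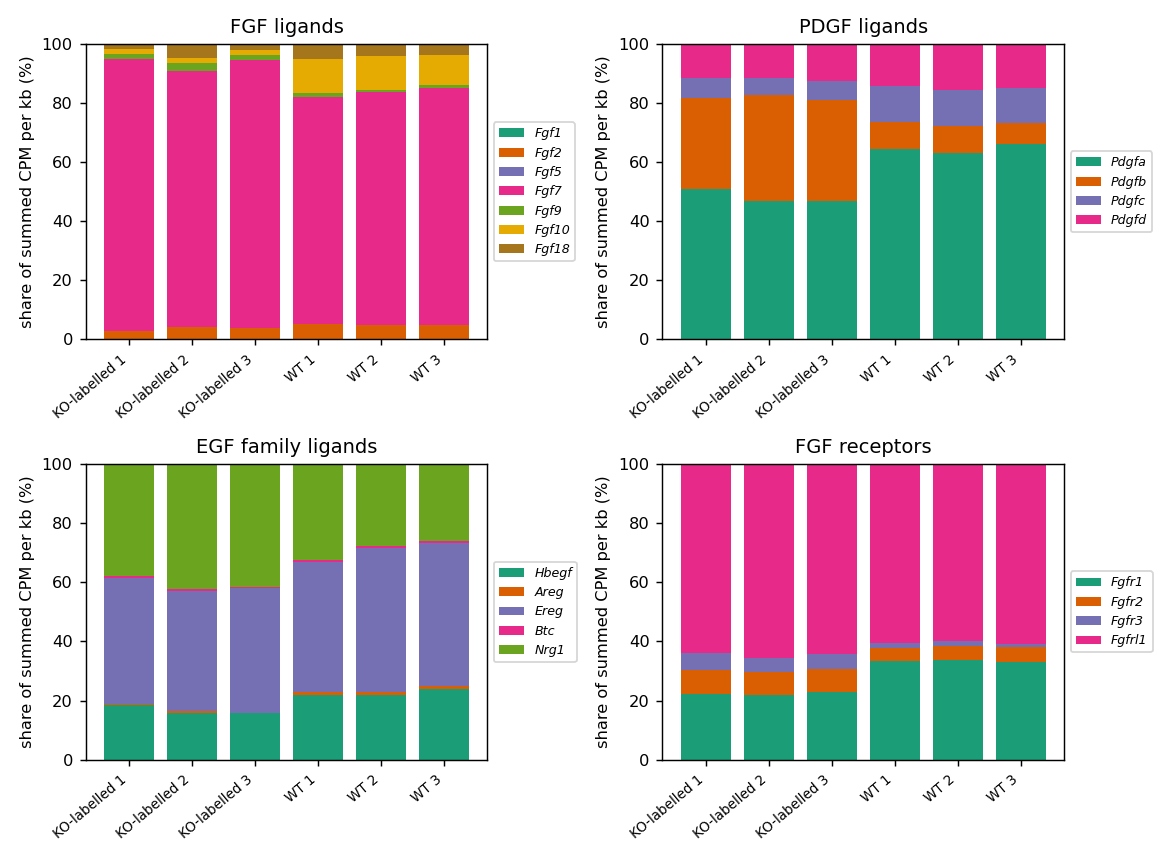
Share of each gene in the summed CPM per kilobase of exon of its family, in percent, for the 3 KO-labelled libraries (left) and the 3 WT libraries (right) in 4 families. Pdgfb takes a larger share of PDGF ligands and Nrg1 a larger share of EGF family ligands in KO-labelled libraries, while Fgfr1 takes 22.3, 21.9 and 23.0% of FGF receptors in KO-labelled and 33.3, 33.6 and 33.0% in WT libraries.

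The receptors of this family diverged. Egfr (ENSMUSG00000020122, chromosome 11, 16752203 to 16918158, plus strand), the receptor for Hbegf, Ereg, Areg and Btc, had 8.17, 8.34 and 9.55 CPM in KO-labelled and 34.2, 35.3 and 36.5 CPM in WT libraries, 4.08-fold lower (log2 difference -2.03, SE 0.08, edgeR adjusted p = 1.40e-07). Erbb3, which has little kinase activity of its own and signals with a partner, was higher at a low level, with 1.90, 2.16 and 2.71 CPM in KO-labelled and 0.674, 0.674 and 0.475 CPM in WT libraries (log2 difference 1.88, SE 0.25). Erbb2, the partner without a ligand of its own, had 43.3, 44.4 and 50 CPM in KO-labelled and 66.0, 57.1 and 47.2 CPM in WT libraries; the groups overlapped and it was not called (log2 difference -0.31, SE 0.12), but 3 of 12 alternative fits called it lower. Egfr and Erbb3 separated the groups without overlap. Beside Erbb3, the epithelial cadherin gene Cdh1 was also higher, with a mean of 7.46 CPM in KO-labelled and 2.22 CPM in WT libraries, while the other 9 epithelial markers were too low to be tested. Among these, Krt8 averaged 0.165 CPM in KO-labelled and 0.0160 CPM in WT libraries, Grhl2 0.131 CPM in KO-labelled and 0.0318 CPM in WT libraries, Krt18 0.0364 CPM in KO-labelled and 0 CPM in WT libraries, and Epcam 0.0106 CPM in KO-labelled and 0.00803 CPM in WT libraries. Krt5 averaged 0.0684 CPM in KO-labelled and 0.0153 CPM in WT libraries. Other markers of the list went the opposite way. Krt14 averaged 0.0922 CPM in KO-labelled and 0.163 CPM in WT libraries, and Esrp1 0.0174 CPM in KO-labelled and 0.022 CPM in WT libraries. Cldn3 averaged 0 CPM in KO-labelled and 0.00725 CPM in WT libraries, and Cldn4 had no count. The part of such cells in the result for Erbb3 was not tested. Per kilobase, Erbb2 exceeded Egfr by a ratio of 11.5, 11.6 and 11.4 in KO-labelled and 4.19, 3.52 and 2.81 in WT libraries.

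Kitl, the gene of stem cell factor, was higher, with 178, 151 and 166 CPM in KO-labelled and 96.7, 107 and 112 CPM in WT libraries, without overlap (log2 difference 0.65, SE 0.08, edgeR adjusted p = 2.40e-04). Its receptor gene Kit, a marker of mast cells and melanocytes, had 4 counts over the KO-labelled and 2 over the WT libraries, too few for a comparison. Bdnf, a neurotrophin, had 169, 143 and 135 CPM in KO-labelled and 145, 168 and 204 CPM in WT libraries, with overlapping groups and no call (log2 difference -0.21, SE 0.13). The neurotrophin receptors of the set, Ntrk2 and Ntrk3, were nearly absent. Ntrk2, the receptor for Bdnf, had 9 counts over the KO-labelled libraries, all in library 2, and 39 over the WT libraries, so that the WT level was 3.63 times the KO-labelled one (exact 95% interval 1.73 to 8.53). Ntrk3, the receptor for neurotrophin-3, stood at 0.737 ± 0.123 CPM in KO-labelled and 0.532 ± 0.0698 CPM in WT libraries (SD, n = 3 each) and was not called.

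Gdnf and its receptor Ret fell together. Gdnf, a ligand of enteric neurons and of the kidney bud, had 0.626, 0.821 and 1.15 CPM in KO-labelled and 3.08, 4.63 and 4.61 CPM in WT libraries (log2 difference -2.26, SE 0.26). Ret (ENSMUSG00000030110, chromosome 6, 118151745 to 118197718, minus strand), the kinase that it activates through a GFRA co-receptor, had 2.95, 2.90 and 3.10 CPM in KO-labelled and 17.2, 18.7 and 19.0 CPM in WT libraries, 6.15-fold lower (log2 difference -2.62, SE 0.10, edgeR adjusted p = 8.24e-08). The groups did not overlap for either gene. Tubb3, a tubulin gene used as a neuronal marker, was lower as well, with a mean of 2.03 CPM in KO-labelled and 15.4 CPM in WT libraries. The neuronal markers Elavl3, Elavl4, Snap25, Syt1 and Rbfox3 went the other way, each with a higher mean in KO-labelled libraries. They averaged at most 0.183 CPM in KO-labelled and 0.0937 CPM in WT libraries and were too low to be tested.

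Gas6 (ENSMUSG00000031451, chromosome 8, 13465374 to 13494490, minus strand), the vitamin K-dependent ligand of the TAM receptors, was 5.13-fold lower, with 5.40, 5.08 and 6.77 CPM in KO-labelled and 32.8, 28.7 and 26.6 CPM in WT libraries (log2 difference -2.36, SE 0.12, edgeR adjusted p = 7.44e-07). Its receptors differed little by comparison. Axl, the most abundant receptor of the set per kilobase, had 502, 585 and 564 CPM in KO-labelled and 624, 612 and 602 CPM in WT libraries; the groups did not overlap, but the gene was not called (log2 difference -0.15, SE 0.08, edgeR adjusted p = 0.156). Mertk, a receptor known for the clearance of dying cells, stood at 3.59 ± 0.404 CPM in KO-labelled and 5.48 ± 0.492 CPM in WT libraries (SD, n = 3 each) and was lower (log2 difference -0.61, SE 0.14). The ratio of Axl to Gas6 per kilobase was 47.1, 58.3 and 42.2 in KO-labelled and 9.63, 10.8 and 11.4 in WT libraries.

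The receptors for collagen moved against each other. Ddr2, the receptor of mesenchymal cells for fibrillar collagen, had 528, 587 and 601 CPM in KO-labelled and 406, 420.1 and 401 CPM in WT libraries and was higher (log2 difference 0.48, SE 0.08). Ddr1, better known from epithelia, had 170.0, 183 and 185 CPM in KO-labelled and 253, 234 and 202 CPM in WT libraries and was lower (log2 difference -0.36, SE 0.09). The groups did not overlap in either gene. Their chromosomes 1 and 17 stood at medians of 0.29 and 0.27, and relative to them the differences were 0.20 for Ddr2 and -0.63 for Ddr1. The ratio of Ddr2 to Ddr1 per kilobase was 1.60, 1.65 and 1.67 in KO-labelled libraries, all above 1, and 0.828, 0.924 and 1.02 in WT libraries, on both sides of 1.

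Compared per length, the order of the genes was led by receptors. Axl stood at 109 ± 8.57 CPM per kilobase of exon in KO-labelled and 122 ± 2.24 in WT libraries (mean ± SD, n = 3 each). Ddr2 stood at 61.7 ± 4.20 in KO-labelled and 44.1 ± 1.09 in WT libraries, and Ddr1 at 37.6 ± 1.72 in KO-labelled and 48.1 ± 5.35 in WT libraries. In KO-labelled libraries Ddr2 was above Ddr1 in each library, whereas in WT libraries Ddr1 and Ddr2 did not differ beyond their spread. Fgfrl1 stood at 34.9 ± 1.87 in KO-labelled and 31.4 ± 2.65 in WT libraries. Among ligands, Kitl led in KO-labelled libraries with 27.9 ± 2.24, against 17.8 ± 1.34 in WT libraries, and Fgf7 led in WT libraries with 31.6 ± 5.44, against 24.8 ± 3.23 in KO-labelled libraries. Bdnf stood at 24.0 ± 2.88 in KO-labelled and 27.7 ± 4.85 in WT libraries, within the spread of Fgf7 in both groups. The KO-labelled means of Kitl and Fgf7 were also within their spread of each other. Library by library, Kitl (30.1, 25.6 and 28.1) was above Fgf7 (28.5, 22.6 and 23.3) in each KO-labelled library. Fgf7 (26.3, 31.2 and 37.2) was above Bdnf (23.2, 27.0 and 32.9) in each WT library, but not in each KO-labelled one. Lengths are those of all annotated exons of a gene, so the level of a gene with long exons that are rarely used is understated.

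**Figure D4:**
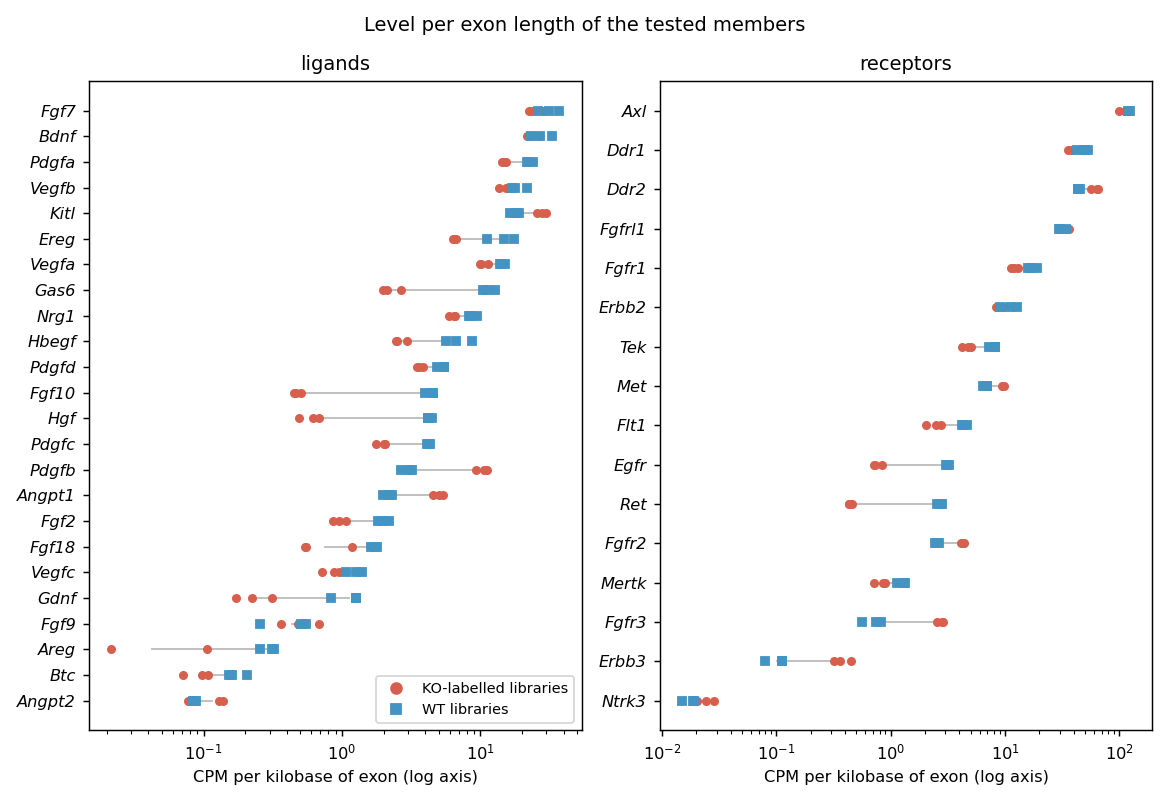
CPM per kilobase of exon on a log axis for the 24 ligand and 16 receptor genes measured, ordered by the WT mean; circles are KO-labelled libraries, squares WT libraries, and grey lines join the group means. A value of 0 for Areg in 1 KO-labelled library is not drawn; Axl stands highest among receptors, and Fgf7 and Bdnf highest among ligands of the WT libraries.

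The spread between libraries of a group was similar in both groups. The median coefficient of variation of the 40 genes was 8.40% in KO-labelled and 8.48% in WT libraries, where all genes tested had 8.26% in KO-labelled and 9.20% in WT libraries. Among the WT libraries, library 2 was rarely at an extreme: it was the highest in 6 and the lowest in 4 of the 40 genes, whereas library 3 was the highest in 21 and library 1 the lowest in 20. Over all genes tested, WT library 2 was likewise less often at an extreme, the highest in 23.0% and the lowest in 22.3%, while WT library 3 was the highest in 37.6% and WT library 1 the lowest in 38.7%. Fgf7, Bdnf, Hbegf and Ereg were lowest in WT library 1 and highest in WT library 3, and Fgfr1, Erbb2 and Ddr1 were the other way round.

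Of the 47 genes, 16 share exon positions with another annotated gene, and no source used here gives the strand option of the counting. The neighbour of Nrg1 was not analysed here. Of the 16 other neighbours, 11 were below 1 CPM in both groups. The exceptions were Nudt6, Ctbp2, 6330403L08Rik, Gm43489 and Mien1, the antisense neighbour of Erbb2 at 24.3 ± 0.811 CPM in KO-labelled and 22.6 ± 1.46 CPM in WT libraries. After the median of each chromosome was subtracted, 0 of the 32 called genes changed sign, and 9 moved by more than 1 SD between libraries, as computed from the SE of the fit. Besides Fgf10, Vegfa, Vegfb, Met, Ddr1 and Ddr2, these were Pdgfd (-0.36 in place of -0.53), Tek (-0.88 in place of -0.76) and Ret (-2.79 in place of -2.62). Chromosome 5 carries 11 of the 47 genes, of which 8 were measured, 6 lower and 1 higher. These are 75.0% lower and 12.5% higher, beside 60.0% and 20.0% of the whole set and 21.3% and 17.6% of all genes tested.

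Genes that act with these ligands and receptors were listed in 4 groups. Of 45 measured adaptors and kinases of the relay downstream of the receptors, 18 were lower, 3 higher and 24 not called, with a median log2 difference of -0.18. These are 40% lower and 6.67% higher, where all genes tested had 21.3% lower and 17.6% higher. Shc2, an adaptor, had the smallest adjusted p of the list, at 1.67 ± 0.493 CPM in KO-labelled and 14.7 ± 1.27 CPM in WT libraries (log2 difference -3.15, SE 0.18). Errfi1, a feedback inhibitor of Egfr, was lower (-1.27, SE 0.10), as were Rras, a small GTPase (-0.95, SE 0.07), and Lrig3, a membrane protein of a family that restrains receptor kinases (-0.92, SE 0.09), with log2 differences in brackets. Their 4 edgeR adjusted p-values lay between 1.48e-06 and 3.37e-05.

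Of 26 measured co-receptors and genes of heparan sulfate, the sugar chain that FGF and VEGF ligands need for binding, 9 were lower, 4 higher and 13 not called, with a median of -0.14. The shares, 34.6% lower and 15.4% higher, stand beside 21.3% and 17.6% of all genes tested, so the share called higher is near the background. Sulf2, which trims sulfate from heparan sulfate outside the cell, had 47.0 ± 3.00 CPM in KO-labelled and 116 ± 6.74 CPM in WT libraries (log2 difference -1.31, SE 0.08). Nrp2, a co-receptor for VEGF ligands and semaphorins, was higher, with 151 ± 12.9 CPM in KO-labelled and 60.7 ± 2.80 CPM in WT libraries (log2 difference 1.31, SE 0.08). Cd44, a hyaluronan receptor, was lower (log2 difference -0.84, SE 0.10) and Gpc6, a glypican, higher (0.70, SE 0.08).

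Of 13 measured genes that release or activate ligands, 6 were lower (46.2%, against 21.3% of all genes tested), 1 was higher (7.69%, against 17.6%) and 6 were not called, with a median of -0.23. Adam19, a membrane protease that can shed Nrg1, had 9.37, 8.90 and 8.27 CPM in KO-labelled and 39.0, 43.0 and 47.7 CPM in WT libraries (log2 difference -2.29, SE 0.09). Adam12, which can shed Hbegf, was lower (log2 difference -1.34, SE 0.10), as were the proprotein convertase gene Pcsk6 (-1.06, SE 0.09) and Plau, the gene of urokinase (-0.65, SE 0.08). Of 17 other measured receptor tyrosine kinases, 8 were lower (47.1%, against 21.3% of all genes tested), 3 were higher (17.6%, equal to the background to the digits given) and 6 were not called, with a median of -0.22. Ror2, a Wnt5a receptor, had 0.0522, 0.0257 and 0.0639 CPM in KO-labelled and 7.35, 7.76 and 6.03 CPM in WT libraries; its KO-labelled values lay under the filter's limit of 0.248 CPM, so it passed through the WT libraries alone and had to differ. Ptk7, a pseudokinase of planar polarity, averaged 0.296 ± 0.0309 CPM in KO-labelled and 5.86 ± 0.790 CPM in WT libraries (log2 difference -4.30, SE 0.21). The ephrin receptors Epha7 and Epha4 were higher, with 75.7 ± 1.62 and 19.2 ± 2.10 CPM in KO-labelled and 25.3 ± 0.605 and 5.33 ± 0.156 CPM in WT libraries.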

How the data were processed

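The deposited table holds expected counts per Ensembl gene, made by the authors with RSEM. The submitters' processing notes list RSEM, cutadapt and GRCm38, and no version, aligner or strand option is given in the sources used here. Of its values, 17.9% are not whole. Symbols, positions (1-based, GRCm38) and exon lengths came from GENCODE M21, with 55230 identifiers matched and 241 not. Promoters are RefSeq sequences (GRCm38.p6).

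Expected counts were rounded, filtered with filterByExpr (minimum count 10, minimum total count 15), scaled with TMM factors and tested with edgeR 4.0.16 in R 4.3.3 (quasi-likelihood F test, two-sided, with a single term for genotype). Benjamini-Hochberg adjustment ran over all 15454 genes, and genes were called at an adjusted p below 0.05. Means are given with SD (n = 3). CPM per kilobase divides by the union of annotated exons. DESeq2 1.42.0, other scalings and filters, a replicate block and leaving out each library were the alternatives. The procedure was tested on simulated counts. Intervals of count ratios are exact (Clopper-Pearson) and cover counting error only. A floor puts 3 counts in place of a KO-labelled sum of 0 and leaves out the counting error of the WT counts.

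The genes and companion lists were chosen with earlier results of these data known. Genes called with at least a 2-fold difference, or reaching 50 CPM in a group mean, were given library by library, and of each companion list the 4 with the smallest adjusted p were named. Other genes named with their values, among them neighbours with shared exon positions, were chosen after their values were seen.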

Additional observations from a re-analysis of the deposited data

How the results depend on the processing

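Over 12 alternative fits, 8 to 9 genes of the set were called higher and 22 to 29 lower. The 29 came from the fit with no filter on low counts, which tested 46 genes of the set where the main fit tested 40. The log2 difference of Ranbp2 stayed between 0.22 and 0.31 and past the threshold. The count over all genes ran from 4353 to 6652, the lowest without WT library 2 and the highest with no filter on low counts, each within 1.5 times the reported 6011. Of the 32 called genes, 28 kept their call in every alternative fit that tested them; the exceptions were Btc, Vegfc, Vegfb and Fgf18, and the cause was not tested. Fgf7, Erbb2, Bdnf and Fgfrl1 were called in 4, 3, 1 and 1 of 12 fits. Fgf9, not called in any fit, changed sign to -0.041 without KO-labelled library 2 and to -0.050 without WT library 2; its values with 1 library left out ran from -0.050 to 0.43. Other scalings moved the median of all genes by at most 0.02 (log2). Deviations from the group mean correlated at 0.02, -0.08 and -0.03 for libraries of equal number, and 0 of 6 libraries correlated best with their own number. The highest correlation was 0.15, for KO-labelled library 3 and WT library 2. With 3 libraries per group the deviations within a group are tied to each other, so these correlations cannot exclude a pairing. With the replicate block, 8 genes of the set were higher and 22 lower, and 4994 of all genes were called. Depth limits the 7 genes that were not tested, each with at most 39 counts in a group.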
